A study of Mus musculus with 2 samples.

Results

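The genes described here are Gfi1 and Gfi1b, a pair of DNA-binding repressors, and the genes of the corepressor complex that they recruit: Kdm1a (the demethylase LSD1), Rcor1 (CoREST), Hdac1 and Hdac2. The genes were chosen by name, as 6 of the 21938 protein-coding genes of the GENCODE M21 annotation. A locus was taken as the gene body plus 50 kb on each side of the 5′ end, and an open region belonged to a locus when its strongest summit lay inside it. By this rule 58 of the 80938 merged regions in the conservative list made from both libraries belonged to the 6 loci. Of these, 10 were promoter regions of the 6 genes, with a summit within 1 kb of a start site of the gene, 4 were promoter regions of other genes, and 44 were distal.

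The study measured open chromatin by ATAC-seq, in which a transposase cuts accessible DNA, in primary cells labelled as megakaryocyte progenitors from adult male C57BL/6J mice aged 5-6 weeks. There were 2 libraries of 50000 cells each, numbered as biological replicates 1 and 2 of a single group, with no treatment or genetic change given in the labels. Both libraries carry the same donor label but separate biosample labels, so the spread between them may not cover differences between animals. No contrast between conditions can be drawn from 1 group, and all values below are descriptions without a test.

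GFI1 and GFI1B are zinc finger proteins of blood cells that repress transcription through an N-terminal SNAG domain. The SNAG domain resembles the tail of histone H3 and docks in the active site of LSD1, which removes methyl groups from lysine 4 of histone H3. CoREST joins LSD1 to nucleosomes and to the deacetylases HDAC1 and HDAC2. In blood formation GFI1 is known for its role in stem cells, lymphocytes and neutrophils, and GFI1B for its role in erythroid cells and megakaryocytes, where it is needed for platelet production. GFI1 and GFI1B bind their own and each other's genes, and repress them.

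The value used for a region is its signal, a number that the authors' peak caller gave to each peak and that carries no stated scaling between libraries. Each library's own list held 61735 regions for replicate 1 and 60098 for replicate 2, and the read depth behind them is unknown. The label was set beside marker genes: a promoter region was listed at 4 of 6 megakaryocyte markers (Itga2b, Gp1ba, Gp9 and Pf4), 3 of 5 erythroid, 4 of 5 granulocyte, 2 of 3 monocyte, 1 of 3 B cell, 0 of 2 T cell, 0 of 2 mast cell and 0 of 3 stem cell markers, beside 59.9% of all protein-coding genes. These counts come from the list made from both libraries. In the libraries' own lists, Gp9 had no promoter region in either, which left 3 of 6 megakaryocyte markers, and replicate 2 had one at 1 of 2 mast cell and 2 of 3 stem cell markers where replicate 1 had none. Several of these shares are near that of all genes, so promoter regions did not set the labelled type apart, and the part of other cells in the values below was not tested. In these bulk libraries, more cells with an open site and a site more open in each cell cannot be told apart.

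All 6 genes had a promoter region, beside the 59.9% of all protein-coding genes given above. All 6 also had one in each library's own list, beside 54.8% of all genes. The repressor genes stood below their corepressors in promoter signal: Gfi1b and Gfi1 were the lowest of the 6 and Kdm1a the highest, and in neither library did a repressor gene reach the value of a corepressor gene.

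**Figure D1:**
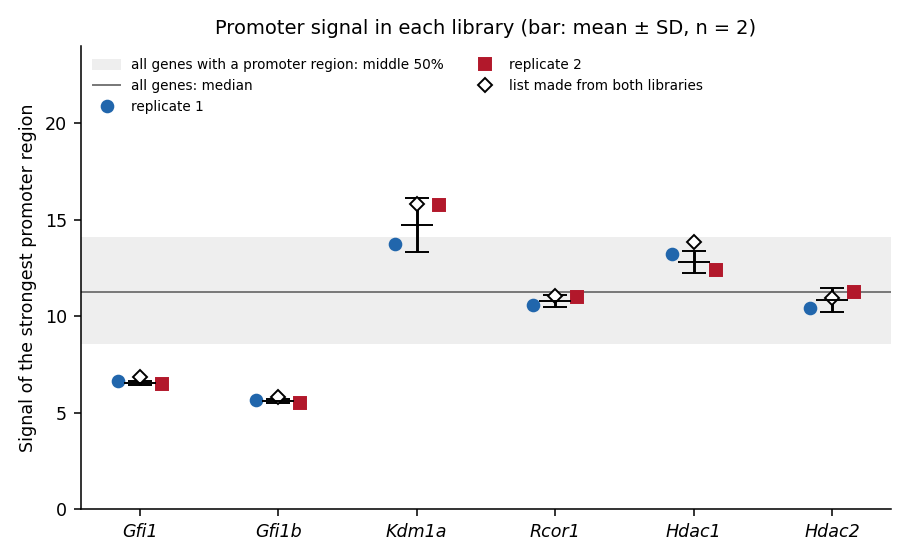
Signal of the strongest promoter region of each gene on a linear axis, with replicate 1 as circles, replicate 2 as squares, their mean ± SD (n = 2) as bars and the list made from both libraries as open diamonds. Gfi1 and Gfi1b lie below the grey band, which spans 8.62 to 14.1 and holds the middle 50% of the 13135 genes with a promoter region, and Kdm1a lies above the line at their median of 11.3 in both libraries.

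Gfi1b had a promoter signal of 5.68 in replicate 1 and 5.52 in replicate 2 (mean 5.60 ± 0.116, SD, n = 2). Gfi1 reached 6.64 and then 6.48 in the other library (6.56 ± 0.112, SD, n = 2). The lower Gfi1 library thus stood above the higher Gfi1b library, and both genes varied little between libraries. These Gfi1 values are those of its strongest promoter region, 0.499 kb inside the gene. Its region at the 5′ end had 5.35 and 4.85, below both libraries of Gfi1b, so the order of these 2 genes depends on the region taken. In the list made from both libraries the signals were 5.80 for Gfi1b and 6.83 for Gfi1, above those of 5.28% and 11.0% of the 13135 genes with a promoter region. By the deposited −log10 p of the promoter region, which was 49.6 for Gfi1b and 69.4 for Gfi1, they stood above 11.7% and 19.1% of these genes. Both scores therefore put these promoters among the weaker of those listed.

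Rcor1 had a promoter signal of 10.6 in replicate 1 and 11.0 in replicate 2 (10.8 ± 0.304, SD, n = 2). Hdac2 had 10.4 and 11.3 (10.8 ± 0.599, SD, n = 2), and the values of these 2 genes overlapped. Hdac1 followed with 13.2 and 12.4 (12.8 ± 0.575, SD, n = 2), above both libraries of Hdac2 and Rcor1. The highest was Kdm1a with 13.7 and 15.7 (14.7 ± 1.42, SD, n = 2), and its lower library stood above the higher library of Hdac1. In the list made from both libraries, Rcor1, at a signal of 11.1, and Hdac2, at 11.0, lay near the median of all genes (48.3% and 47.4% of genes were lower), while Hdac1 and Kdm1a stood above 73.7% and 85.9%. The −log10 p gave another order among the corepressors: Rcor1 was highest at 238, above 92.4% of genes, with a promoter region 1211 bases wide, and Kdm1a stood at 160, above 60.2%. Hdac2 had the widest of the promoter regions, at 1569 bases, above 96.5% of genes.

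Base composition around the 5′ end is given beside these values. In the 1 kb centred there, the ratio of observed to expected CpG dinucleotides was 0.320 at Gfi1b and 0.621 at Gfi1. It was 0.783 at Hdac1, 0.830 at Hdac2, 0.959 at Rcor1 and 0.960 at Kdm1a. The share of G and C bases was 50.9% at Gfi1b, 60.1% at Gfi1 and 60.2% at Hdac1, and 65.9% to 72.3% at the other 3 genes. The repressor genes thus had the lower CpG ratios, but Gfi1 and Hdac1 were nearly equal in G and C content, and the part of base composition in the signal was not tested.

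Distal regions showed a different order. Rcor1, Hdac1 and Gfi1b each had 10 distal regions, Gfi1 had 8, Kdm1a had 5 and Hdac2 had 1. In the libraries' own lists, replicates 1 and 2 held 9 and 9 at Rcor1, 8 and 9 at Hdac1, 8 and 7 at Gfi1b, 5 and 6 at Gfi1, 3 and 4 at Kdm1a, and 1 and 1 at Hdac2. Rcor1 and Hdac1 thus overlapped, as did Hdac1 and Gfi1b, whereas Gfi1, Kdm1a and Hdac2 followed in that order without overlap. At least 8 distal regions were found at 4 of the 6 loci, beside 21.7% of all genes, whose mean was 4.88 and median 4. The count of 8 is that of Gfi1 itself, and in the libraries' own lists it was reached at 3 loci in replicate 1, beside 11.1% of all genes, and at 2 loci in replicate 2, beside 10.4%. The windows differ in length, since the bodies of Kdm1a and Rcor1 reach past 50 kb, and 1 distal region of Rcor1 lay beyond 50 kb from the 5′ end.

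**Figure D2:**
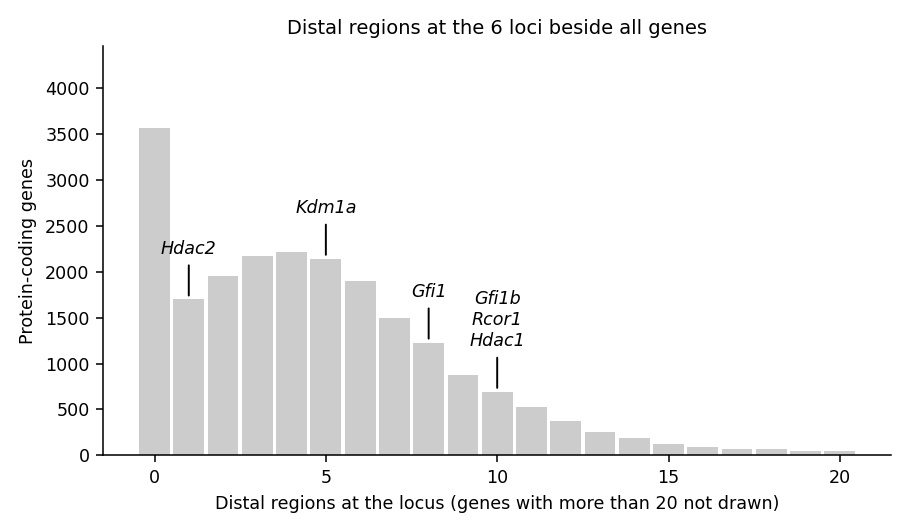
Number of protein-coding genes (vertical axis) with each number of distal regions at their locus (horizontal axis), with the 6 genes marked at their own count. Rcor1, Hdac1 and Gfi1b sit at 10, Gfi1 at 8, Kdm1a at 5 and Hdac2 at 1, beside a median of 4 over all genes.

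Many distal regions were not those of a single gene. By distance to the nearest protein-coding 5′ end, 23 of the 44 lay closest to the gene whose locus they were found in: 8 of 8 at Gfi1, 6 of 10 at Rcor1, 3 of 10 at Gfi1b, 3 of 10 at Hdac1, 2 of 5 at Kdm1a and 1 of 1 at Hdac2. Of the 44, 25 lay outside protein-coding genes, 16 in introns and 3 in exons of such genes. Noncoding genes were not considered, either here or in calling a region distal. Their median signal was 8.02, beside 8.74 over all 65549 distal regions, and 17 of the 44 stood above that median. Which gene a distal region acts on was not measured.

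**Figure D3:**
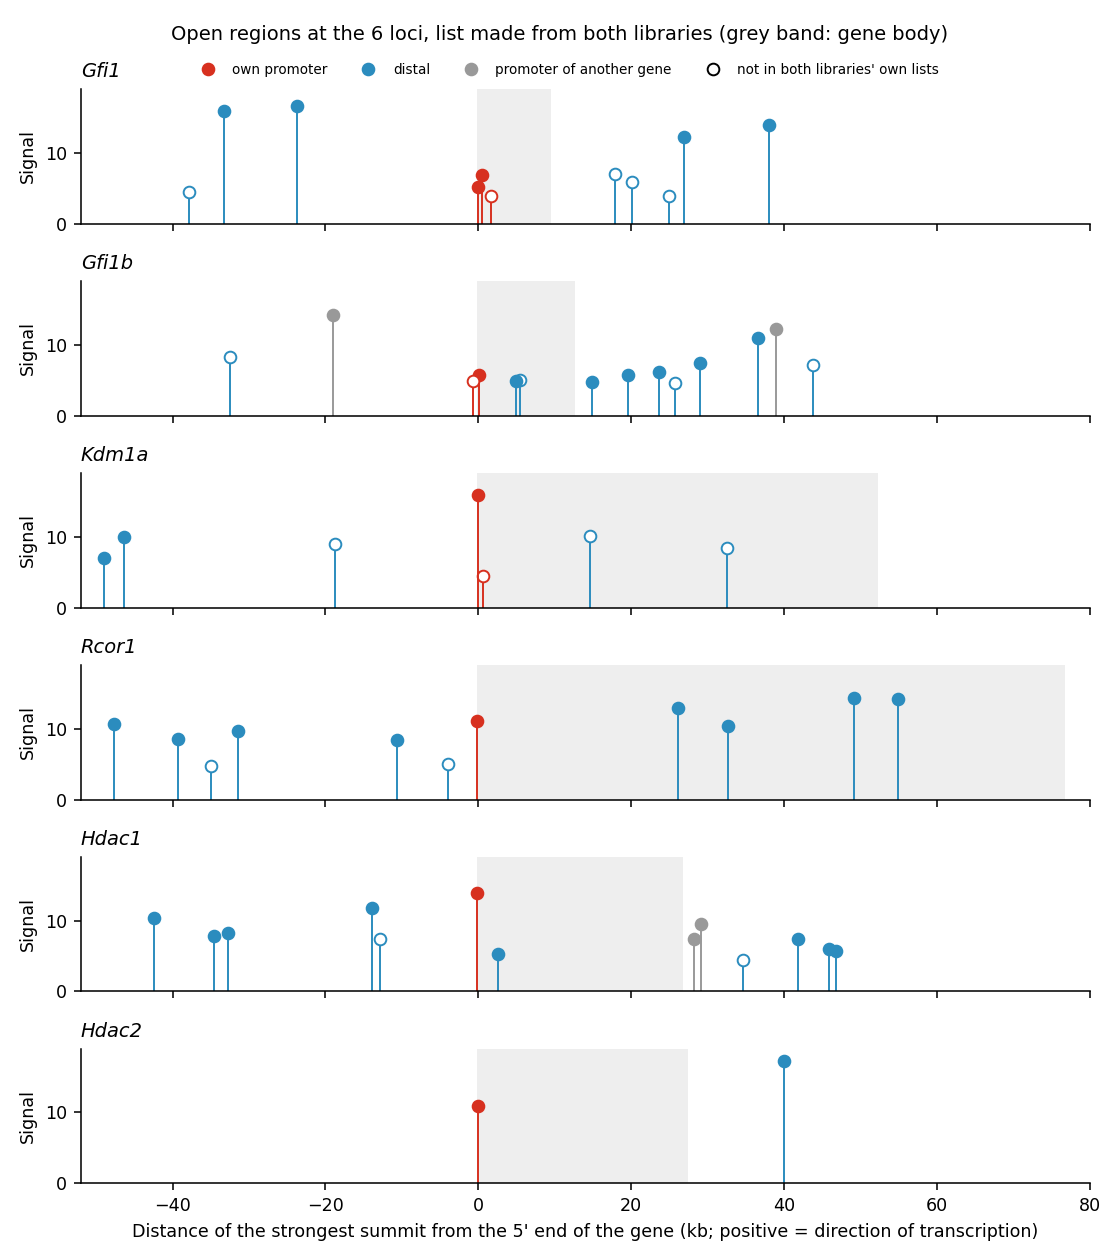
Signal of each open region in the list made from both libraries (vertical axes) against the distance of its summit from the 5′ end of the gene in kb (horizontal axis, positive in the direction of transcription), 1 panel per gene, with the gene body as a grey band. Open circles were not listed in both libraries' own lists. At Gfi1 the distal regions at 23.7 and 33.3 kb upstream rise to 16.6 and 15.9 over promoter regions of at most 6.83, whereas at Kdm1a the promoter, at 15.8, is the highest region.

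Gfi1 (ENSMUSG00000029275.18, minus strand, chr5:107716657-107726036 in mm10) had weak promoter regions and strong distal ones. Its strongest distal region, 23.7 kb upstream in an intron of Evi5, had a signal of 14.8 in replicate 1 and 15.7 in replicate 2. The next, 33.3 kb upstream in an intron of the same gene, had 14.2 and 15.2. Evi5 lies next to Gfi1 and is named for a site where retroviruses integrate in mouse lymphomas. On the other side, a region 38.0 kb downstream had 13.0 and 12.1, and a region 26.9 kb downstream had 10.7 and 11.9. In each library, all 4 regions were higher than every Gfi1 promoter region. In the list made from both libraries, the region at 23.7 kb had a signal of 16.6 and stood above 95.4% of all distal regions, and its log2 ratio to the Gfi1 promoter was 1.28.

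The remaining 4 distal regions of Gfi1 were weak, at signals of 3.94 to 7.01. Of these, 1, at 17.9 kb downstream, was listed in replicate 2 alone, at 7.35, and the other 3 were in neither library's own list. The promoter itself held 3 regions. The one 0.499 kb inside the gene had the signal of 6.83 given above. The one at the 5′ end stood at 5.35 in replicate 1 and at 4.85 in replicate 2. The one 1.59 kb inside the gene, near another start site, had 3.90 and was in neither library's own list.

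The sequences of the 5′ end region and of the 3 strongest distal regions of Gfi1 are shown because the contrast between them is the main pattern at this locus. Each is the 151 bases centred on the summit, read from GRCm38.p6 (the assembly of mm10) on the minus strand, the strand of the gene. In all sequences below, capitals mark letters found on either strand. They are AATCNC, the core of the GFI motif, and the GATA factor letters AGATAA, together with the form TGATAA. They also mark TGTGGT, which RUNX factors are known to bind, and GGAAGT, together with the longer form CCGGAAG, for ETS factors. A match describes the letters and is not evidence of binding.
Gfi1 5′ end, chr5:107726056-107726206: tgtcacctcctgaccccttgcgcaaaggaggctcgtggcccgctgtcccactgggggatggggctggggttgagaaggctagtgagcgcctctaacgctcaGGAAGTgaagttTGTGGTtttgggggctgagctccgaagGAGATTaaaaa
Gfi1 23.7 kb upstream, chr5:107749632-107749782: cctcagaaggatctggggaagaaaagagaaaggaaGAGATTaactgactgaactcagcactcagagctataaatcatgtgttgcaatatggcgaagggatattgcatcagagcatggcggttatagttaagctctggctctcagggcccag
Gfi1 33.3 kb upstream, chr5:107759219-107759369: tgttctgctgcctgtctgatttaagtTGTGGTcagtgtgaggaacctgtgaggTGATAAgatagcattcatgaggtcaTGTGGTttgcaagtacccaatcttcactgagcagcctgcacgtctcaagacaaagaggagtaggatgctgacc
Gfi1 38.0 kb downstream, chr5:107687969-107688119: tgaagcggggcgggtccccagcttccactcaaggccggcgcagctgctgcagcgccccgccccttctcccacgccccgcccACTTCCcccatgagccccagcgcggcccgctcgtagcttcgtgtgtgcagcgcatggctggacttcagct
The region at the 5′ end held 1 ETS, 1 RUNX and 1 GFI core match. Of the letters marked by capitals, the strongest distal region held a single GFI core match. The next one held 1 GATA match between 2 RUNX matches, and the downstream one 1 ETS match. Among letters spelled out below and not marked here, the downstream region held 3 KLF and SP matches and E-box letters. The region at 33.3 kb held 1 NFY match.

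Gfi1b (ENSMUSG00000026815.14, minus strand, chr2:28609450-28621982) had its distal regions almost entirely on 1 side, with 9 of 10 downstream of the 5′ end. Its stronger promoter region, at 5.80, lay in an exon of the gene, 0.084 kb from the 5′ end. A weaker one 0.723 kb upstream, at 4.83, was listed in replicate 2 alone. The strongest distal region, 36.6 kb downstream, had a signal of 10.4 in replicate 1 and 10.6 in replicate 2, and lay near Gtf3c5, a gene for a subunit of the RNA polymerase III factor TFIIIC. The next in the list made from both libraries, at 8.24, was 32.5 kb upstream in an intron of Tsc1, a growth control gene, and was in neither library's own list. The one after it, 29.0 kb downstream, had 6.43 and 7.64. The Tsc1 and Gtf3c5 promoters, which lie inside this locus, had 14.1 and 12.2 in the list made from both libraries, so both neighbours stood above the Gfi1b promoter.

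Between Gfi1b and Gtf3c5 lay 3 regions in a row that held GATA letters, at 19.6, 23.7 and 25.8 kb downstream of the Gfi1b 5′ end. The sequence beyond the 3′ end of Gfi1b is known to hold enhancers of this gene in erythroid and megakaryocytic cells. Whether any of the 3 regions is such an enhancer was not tested. The region at 19.6 kb had a signal of 5.74 in replicate 1 and 5.40 in replicate 2. The region at 23.7 kb had 5.77 and 6.22. The region at 25.8 kb had 4.35 in replicate 1 and was not in the own list of replicate 2. Signal and significance placed them differently: the first 2 stood above 14.5% and 19.2% of all distal regions by signal, but above 69.1% and 74.8% by −log10 p, which was 70.3 and 78.6. All 3 were nearer to the 5′ end of Gtf3c5 than to that of Gfi1b. A region closer to the 3′ end of Gfi1b, 14.8 kb downstream of its 5′ end, was nearest to Gfi1b. It had 4.45 in replicate 1 and 4.66 in replicate 2, and held none of the letters searched within 75 bases of its summit.

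The 3 regions are shown with the RefSeq promoter of Gfi1b (250 bases before to 50 after the start site, GRCm38.p6), all on the minus strand, because they carry the GATA letters of this locus.
Gfi1b 19.6 kb downstream, chr2:28602281-28602431: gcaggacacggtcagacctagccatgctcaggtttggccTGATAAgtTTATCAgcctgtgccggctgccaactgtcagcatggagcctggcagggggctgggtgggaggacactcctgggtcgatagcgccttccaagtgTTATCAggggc
Gfi1b 23.7 kb downstream, chr2:28598213-28598363: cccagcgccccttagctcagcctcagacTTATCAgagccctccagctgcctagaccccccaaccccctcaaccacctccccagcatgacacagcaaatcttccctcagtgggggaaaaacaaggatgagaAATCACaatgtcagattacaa
Gfi1b 25.8 kb downstream, chr2:28596141-28596291: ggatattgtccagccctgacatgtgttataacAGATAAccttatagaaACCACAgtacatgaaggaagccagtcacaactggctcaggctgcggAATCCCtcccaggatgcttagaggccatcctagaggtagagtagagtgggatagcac
Gfi1b promoter, chr2:28621933-28622232: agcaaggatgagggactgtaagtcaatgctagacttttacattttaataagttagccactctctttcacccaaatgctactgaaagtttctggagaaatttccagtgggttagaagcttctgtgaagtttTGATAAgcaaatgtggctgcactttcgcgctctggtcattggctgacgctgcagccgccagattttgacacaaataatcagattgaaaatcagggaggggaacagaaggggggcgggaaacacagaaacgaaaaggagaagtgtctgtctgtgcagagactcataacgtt
The region at 19.6 kb held 3 GATA matches, and the region at 25.8 kb held GATA, RUNX and GFI core matches together. The RefSeq promoter held 1 GATA match, TGATAA, which lies beyond the 151 bases around the promoter summit. Of all 32851 RefSeq promoters of this length, 18.6% held a GATA match. RefSeq promoters were matched by symbol for 5 of the 6 genes (not Hdac1), and of these 5 genes Gfi1b had the only GATA match.

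Kdm1a (ENSMUSG00000036940.15, minus strand, chr4:136550540-136602723) showed the reverse arrangement to Gfi1, a strong promoter and weaker distal regions. Its main promoter region lay at the 5′ end, and a second one 0.617 kb inside the gene, at 4.46, was in neither library's own list. The strongest distal region, 14.5 kb downstream in an intron of Kdm1a, had a signal of 10.4 in replicate 2 and was not in the own list of replicate 1. The next, 46.4 kb upstream in an exon of Ephb2, a receptor kinase gene, had 9.38 in replicate 1 and 8.68 in replicate 2. A region 18.8 kb upstream had 7.64 in replicate 2 and was not listed in replicate 1. Only 2 of the 5 distal regions at this locus, both in exons of Ephb2, were thus listed in both libraries. The log2 ratio of the strongest distal region to the promoter was −0.65.

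Rcor1 (ENSMUSG00000037896.17, plus strand, chr12:111039351-111115901) was the locus with the strongest regions inside the gene among the corepressors. A region 49.1 kb downstream of the 5′ end had a signal of 12.4 in replicate 1 and 12.9 in replicate 2, and one 54.9 kb downstream had 12.7 and 12.9. These 2 neighbours overlapped in value, and both stood above the Rcor1 promoter in each library. A region 26.2 kb downstream had 10.4 and 13.9, above the promoter in replicate 2 only. All 3 lie in introns of Rcor1. Upstream, a region 10.6 kb from the 5′ end had 8.86 in replicate 1 and 6.76 in replicate 2.

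GATA letters were found in 7 of the 10 distal regions of Rcor1, including the 3 strongest. The strongest and the one with the lowest ratio of replicate 2 to replicate 1 are shown, on the plus strand.
Rcor1 49.1 kb downstream, chr12:111088387-111088537: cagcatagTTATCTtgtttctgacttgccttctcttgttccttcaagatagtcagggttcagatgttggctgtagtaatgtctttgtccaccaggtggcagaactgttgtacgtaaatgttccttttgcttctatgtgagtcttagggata
Rcor1 10.6 kb upstream, chr12:111028659-111028809: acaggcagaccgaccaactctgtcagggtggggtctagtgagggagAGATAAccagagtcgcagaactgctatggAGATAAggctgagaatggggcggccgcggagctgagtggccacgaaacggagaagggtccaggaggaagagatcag
The upstream region held 2 GATA matches and the intronic one 1, on the other strand. In the intronic region that match began at −67 bases from the summit. Nearer to the summit, without capitals, were E-box letters at −16 and CTCF letters at 12 bases (both spelled out below).

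Hdac1 (ENSMUSG00000028800.15, minus strand, chr4:129516104-129542713) had a promoter signal above that of 73.7% of the genes with a promoter region. Of its 10 distal regions, the strongest lay 13.9 kb upstream. That region had a signal of 11.0 in replicate 1 and 11.2 in replicate 2, below the promoter in both, and lies in an intron of Lck, a kinase gene known for its role in T cells. The next, 42.4 kb upstream, had 9.70 and 9.42, and the one after it, 32.7 kb upstream, had 6.96 and 7.99. Downstream, 2 promoter regions of Marcksl1, a gene for an actin-binding protein, had 9.46 and 7.36 in the list made from both libraries. No distal region of Hdac1 held GATA letters within 75 bases of its summit.

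Hdac2 (ENSMUSG00000019777.16, plus strand, chr10:36974544-37001889) had the fewest regions, a wide promoter region and 1 distal region 39.9 kb downstream of the 5′ end, outside protein-coding genes. That distal region had a signal of 15.5 in replicate 1 and 14.1 in replicate 2, and at 17.3 in the list made from both libraries it was the highest of all 58. In replicate 2 it lay below the Gfi1 regions 23.7 and 33.3 kb upstream, at 15.7 and 15.2, and the Kdm1a promoter, at 15.7. By signal in the list made from both libraries it stood above 96.6% of all distal regions, and by its −log10 p of 96.2 above 83.9%. The region is shown for that signal, on the plus strand.
Hdac2 39.9 kb downstream, chr10:37014388-37014538: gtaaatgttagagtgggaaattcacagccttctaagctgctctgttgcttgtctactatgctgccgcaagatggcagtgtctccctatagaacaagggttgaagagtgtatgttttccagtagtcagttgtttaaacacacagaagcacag
None of the letters searched was found in it, so it carries no capitals. HDAC1 and HDAC2 are close paralogs that act in the same complexes. Their loci differed in the number of distal regions, 8 and 9 in replicates 1 and 2 at Hdac1 against 1 and 1 at Hdac2. In the list made from both libraries, however, only 3 of 10 at Hdac1, and 1 of 1 at Hdac2, lay nearest to the 5′ end of the gene itself.

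Across the 6 loci, 40 of the 58 regions were listed in both libraries, beside 63.9% of all regions. Of the rest, 3 were in replicate 1 only, 6 in replicate 2 only and 9 in neither, beside 18.9% of all regions in neither. Regions in both had signals of 4.69 to 17.3 (median 9.81), and those in neither had 3.90 to 8.41 (median 4.48). All 58 were in both libraries' more inclusive lists made by pseudoreplicates, as were 97.3% of all regions.

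At the 40 regions in both, replicate 2 over replicate 1 gave a median log2 ratio of 0.05 (SD 0.16), beside 0.08 (SD 0.18) over all 51738 such regions, and replicate 2 was higher at 25 of the 40. The most negative ratio was −0.39, at the Rcor1 region 10.6 kb upstream. The most positive was 0.43, at the Rcor1 region 26.2 kb downstream. The first of these was the only one of the 40 that lay more than 2 SD from the median of all regions, a range of −0.28 to 0.44 that left out 5.27% of all regions.

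**Figure D4:**
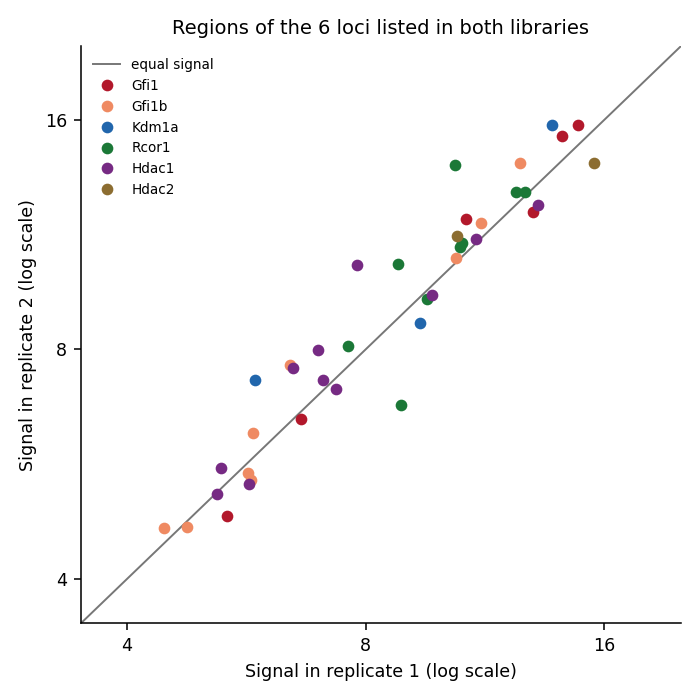
Signal in replicate 1 (horizontal) against replicate 2 (vertical), both on log axes, at the 40 regions of the 6 loci listed in both libraries, coloured by gene, with a line of equal signal. The points follow the line, with log2 ratios from −0.39 to 0.43, and the points farthest from it on either side belong to Rcor1.

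GATA letters were found within 75 bases of the summit in 14 of the 44 distal regions (31.8%), beside 20.9% of all distal regions. They lay in 7 of 10 at Rcor1, 3 of 8 at Gfi1, 3 of 10 at Gfi1b, 1 of 5 at Kdm1a, 0 of 10 at Hdac1 and 0 of 1 at Hdac2. Rcor1 alone thus held 7 of the 14. None of the 10 promoter regions of the 6 genes held them within 75 bases of the summit, beside 6.46% of all promoter regions. The TGATAA of the Gfi1b RefSeq promoter lies inside the listed Gfi1b promoter region but farther from its summit. The composite of CTG, 8 bases and AGATAA, which GATA1 and TAL1 are known to bind together, was found in 0 of the 44 distal regions, beside 1.43% of all.

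The GFI motif, which GFI1 and GFI1B share through their zinc fingers, was searched in a longer and a shorter form. The longer form, AATCACNGC, was found in 0 of the 44 distal and 0 of the 10 promoter regions, beside 0.304% of all distal and 0.578% of all promoter regions. The core AATCNC was found in 7 of the 44 distal regions (15.9%), beside 15.3% of all distal regions. Of these 7, 3 were at Gfi1, 2 at Gfi1b, 1 at Kdm1a and 1 at Hdac1. Among promoters, 1 region of Gfi1 and 1 of Kdm1a held the core (2 of 10, 20%), beside 14.8% of all promoter regions.

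RUNX letters were in 8 of the 44 distal regions (18.2%, beside 22.4% of all) and ETS letters in 8 (18.2%, beside 26.9%). With 50 bases on each side of the summit, the ETS letters were in only 3. At Gfi1, ETS letters lay in 4 of 8 distal regions, and at Hdac1 RUNX letters lay in 4 of 10. Among these Gfi1 regions, the one 37.8 kb upstream was in neither library's own list and the one 17.9 kb downstream in replicate 2 alone. The Hdac1 region with RUNX letters 12.8 kb upstream was also in replicate 2 alone. The E-box letters CAGCTG or CAGATG were in 13 (29.5%, beside 25.4%), the NFE2 and AP-1 letters TGANTCA in 2 (4.55%, beside 7.92%), the KLF and SP letters GGGCGG or CCNCACCC in 7 (15.9%, beside 13.9%) and the NFY letters CCAAT in 5 (11.4%, beside 16.4%), or in 8 with 100 bases on each side. The 2 regions counted for TGANTCA were at Kdm1a and Rcor1. The Kdm1a one, 32.6 kb downstream, was in neither library's own list. Its sequence is a repeated stretch that also gave 3 RUNX matches, so this region counts for both kinds of letters.

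**Figure D5:**
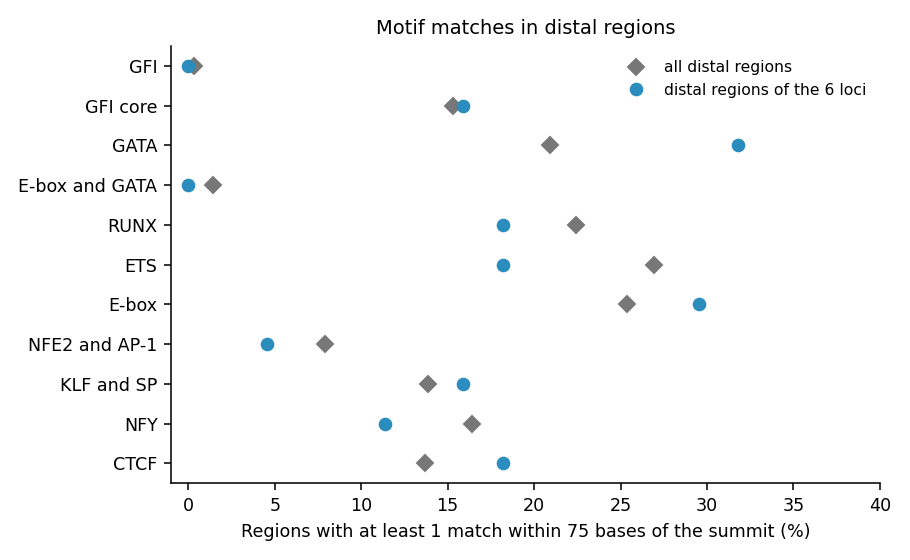
Share of regions in percent (horizontal axis) with at least 1 match to each motif within 75 bases of the summit, for the 44 distal regions of the 6 loci (circles) and all 65549 distal regions (diamonds). GATA letters show the widest gap, at 31.8% against 20.9%, but 7 of the 14 regions with them belong to Rcor1 alone. The 2 GFI forms lie close to all regions.

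Other genes of the same complexes were set beside the 6. Of 11 further LSD1 and CoREST partners, 11 had a promoter region, beside 59.9% of all protein-coding genes. Their median signal was 9.40, beside 11.3 over all genes with a promoter region. Their median number of distal regions was 6, beside 4 over all genes. Gse1, a coiled-coil partner of the complex, had 42 distal regions and Phf21a, which reads unmethylated histone H3, had 16. Since a locus spans the whole gene body, long genes have longer windows, and the counts for all comparison lists were not scaled to length. The zinc finger gene Zmym3 and Kdm1b, the paralog of Kdm1a, had the highest promoter signals, at 13.8 and 12.3, both below the 15.8 of Kdm1a in the same list. Of 14 further class I deacetylase complex genes, 14 had a promoter region, beside the same 59.9% of all genes. Their median signal was 10.1, also below that of all genes with a promoter region, and their median number of distal regions was 7. Sin3b, a scaffold, and Hdac8, a deacetylase, had the highest promoter signals, at 17.1 and 15.1. Mta3, of the NuRD complex, had the most distal regions, at 19, and the HDAC scaffold gene Mideas had 14.

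Of 8 other genes for SNAG domain factors, 6 had a promoter region, beside 59.9% of all genes, and Insm1 and Ovol1 had none. Insm2 and Snai1 had the highest signals, at 14.1 and 13.5, and Snai1 and Snai3 the most distal regions, at 8 each. Gfi1 and Gfi1b, at 6.83 and 5.80, lay below the median of 9.85 of these 6 promoters and above Scrt1, at 5.66, and Snai3, at 4.83. The Scrt1 promoter region was in the own list of replicate 2 alone and that of Snai3 in neither. Thus 4 of the 8 genes had one in both libraries, beside 54.8% of all genes. Of 11 genes that other studies reported as repressed by GFI1 or GFI1B, 11 had a promoter region, all in both libraries. The shares of all genes were again 59.9% and, in both libraries, 54.8%. Rgs18, a regulator of G protein signalling in platelets, had the highest promoter signal of these, at 16.4. Tgfbr3, a receptor gene, had 28 distal regions and the homeobox gene Meis1 had 15. A listed region says that chromatin was open, not whether the gene was expressed or repressed.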

How the data were processed

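ATAC-seq peak lists on mm10 were used, per the labels. The authors deposited, per the file headers, lists from each library alone and lists from both libraries (conservative, thresholded on the irreproducible discovery rate, replicated and pseudoreplicated). The signal of each peak is a value the authors' peak caller gave, and the deposited p and q columns are −log10 values. The aligner, peak caller, duplicate handling and transposase shift, which the sources used here do not give, could change which regions are listed and where summits lie. Depth is unknown, so no counting interval was given, and 2 libraries limit the precision.

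Summits of 1 interval were merged, and the strongest gave position and signal. Start sites were the 54361 of protein-coding transcripts on 21 chromosomes. A region counted as listed in a library when an overlap covered 50% or more of it or of the library's region. Letters were searched on both strands of GRCm38.p6, in open regions only within 75 bases of the summit. A region said to hold none may thus hold them farther out. CTCF was searched as CCA, 2 bases, AG, 2 bases, GGC, and the other motifs as spelled out in the text. AATCNC overlaps AATCACNGC by construction, the composite contains the GATA letters, and palindromes match both strands. Promoter sequences are RefSeq's. Mideas was matched under its symbol Elmsan1 in the annotation. Promoters by the strongest summit gave 13135 genes, and by any overlap 13386 (61.0%). Regions next to the window edges lay 1.08 kb inside (Kdm1a, signal 7.05) and 0.937 kb outside (Gfi1, signal 9.62).

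From each comparison list the text names the 2 genes with the most distal regions, the 2 with the highest promoter signal and those without a promoter region, and at each locus the 3 strongest distal regions. Some genes that this rule names are not reported here. Other regions, and the genes Scrt1 and Snai3, were named after their values were seen. The members, lists and motifs were chosen with earlier results of these data known. Scripts used Python 3.11.15, pandas 2.3.3, numpy 2.4.6, pysam 0.24.0 and matplotlib 3.10.9, and were tested on simulated data.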

Additional observations from a re-analysis of the deposited data

How the results depend on the processing

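Of 59 pairs of a main count or median and an alternative, 17 were labelled as moved. The pairs are not separate checks, since distal totals and their means per gene are the same counts. Regions listed in both libraries rose from 40 to 58 with the pseudoreplicated lists and were not labelled as moved. The regions numbered 93 in the replicated list, 90 in the pseudoreplicated list, 24 among the stronger 50% of regions, 28 in a 20 kb window and 93 in a 100 kb window. Distal regions in the same order numbered 77, 73, 17, 17 and 72, or 12.8, 12.2, 2.83, 2.83 and 12 per gene. These lists and windows are longer or shorter by construction. Only 4 promoter regions remained among the stronger 50%, where only 4 of the 6 genes had one. With each library alone, the median promoter signal of the 6 genes ranged from 10.5 to 11.1, distal regions from 34 to 36 and promoter regions from 7 to 8. Gfi1 and Gfi1b had the lowest promoter signals in 11 of 12 settings, the main one included. Most of these could not test the order, since locus windows do not enter the promoter signal. The other lists from both libraries and the other promoter windows gave the same value for each gene. The lists of each library alone did change the values, with Gfi1 and Gfi1b still lowest. The exception was the stronger 50%, which drops low signals by construction and where not all genes had a promoter region. Which locus had the most distal regions changed between Gfi1b, Rcor1 and Hdac1, with ties. GATA letters were in 12 to 15 distal regions under other windows and lists, ETS letters in 3 to 9 and NFY letters in 4 to 8. The log2 ratio between libraries from the pseudoreplicated lists, and the promoter region nearest the 5′ end, were chosen after seeing the data and gave medians of 0.045 and 11.0. With the region nearest the 5′ end, Gfi1 stood at 5.175, below Gfi1b at 5.799. No paired analysis was possible because both libraries belong to 1 group. Without known depth, a region that is not listed is not shown to be closed.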

Other observations

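CTCF is a protein known for holding chromatin loops at domain borders. Letters of its motif (CCA, 2 bases, AG, 2 bases, GGC) were found in 8 of the 44 distal regions (18.2%), beside 13.7% of all distal regions. At Gfi1b they lay in 3 distal regions, 29.0, 36.6 and 43.8 kb downstream, and in the weaker promoter region 0.723 kb upstream. The 3 regions with GATA letters at Gfi1b, 19.6 to 25.8 kb downstream, therefore lay between the CTCF letters near the promoter and those at 29.0 kb. The other 5 distal regions with CTCF letters were 2 at Kdm1a, 1 at Rcor1 and 2 at Hdac1. At Gfi1 none of the 8 distal regions held them. Binding of CTCF was not measured here.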
